A study of Mus musculus with 13 samples.

Results

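T cell costimulatory and checkpoint receptors are the surface proteins that add to, or hold back, the signal a T cell receives through its antigen receptor (TCR). The mRNA of 10 such receptors (Cd28, Ctla4, Icos, Pdcd1, Btla, Lag3, Cd27, Tnfrsf4, Tnfrsf9 and Cd5), chosen by gene symbol among the 43629 genes of the deposited expression table, was examined in thymic T cell lymphomas and normal thymus. All 10 were measured and passed the filter on low values. RNA sequencing had been performed on single-cell suspensions of 13 mouse samples in 3 groups. These were 5 thymic lymphomas of Atm-/- mice, which lack the DNA damage kinase ATM, on the 129S6/SvEv strain; 5 thymic lymphomas of Rag2c/c p53-/- mice, on a mixed background of C57BL/6 and 129S6/SvEv; and 3 wild-type (WT) thymuses from C57BL/6 mice. Rag2c/c mice express a RAG2 recombinase truncated at its C terminus, and here also lack the tumor suppressor p53. Each lymphoma came from a different mouse, ages were not given, and the WT libraries had been sequenced for an earlier series and used again. Strain, series of origin and tumor state therefore go with the groups and cannot be told apart.

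To be activated, a T cell needs antigen recognition by the TCR and, alongside it, costimulation. CD28 is the main costimulatory receptor; it binds CD80 and CD86 and recruits PI 3-kinase. CTLA-4 competes for the same ligands and restrains the response, ICOS is a CD28 relative that binds ICOSL, and PD-1 (Pdcd1) and BTLA are inhibitory receptors of the same superfamily. LAG-3 is a relative of CD4 that binds MHC class II. CD27, OX40 (Tnfrsf4) and 4-1BB (Tnfrsf9) belong to the TNF receptor superfamily and signal through TRAF adaptors. CD5 is a scavenger receptor family protein that dampens TCR signals, and its level on thymocytes follows the strength of those signals. In the thymus CD28 and CD5 rise as thymocytes pass the pre-TCR checkpoint, and CTLA-4, ICOS and OX40 are marks of regulatory and recently signalled T cells.

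In the GRCm38 assembly, Cd28 (chr1:60716800-60773359, plus strand), Ctla4 (chr1:60887000-60915832, plus strand) and Icos (chr1:60977927-61000320, plus strand) are adjacent genes on chromosome 1. Pdcd1 lies elsewhere on the same chromosome (chr1:94038305-94052553, minus strand). Lag3 (chr6:124904361-124911705, minus strand) sits 16.1 kb from Cd4, and Cd27 (chr6:125232622-125237010, minus strand) overlaps Vamp1 on the opposite strand. Tnfrsf9 (chr4:150914562-150946102, plus strand) overlaps Camta1, and Tnfrsf4 (chr4:156013843-156016612, plus strand) is 9.6 kb from the related receptor gene Tnfrsf18. Btla is at chr16:45224315-45252895 (plus strand) and Cd5 at chr19:10718143-10738974 (minus strand). Whether counting used strand was not given, so reads from the overlapping parts of Cd27 and Vamp1 or Tnfrsf9 and Camta1 cannot be assigned to 1 gene with certainty.

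The sequences before 4 transcription starts (RefSeq, GRCm38.p6) are shown because these genes represent the patterns described below. Cd5 and Btla were lower in all lymphomas and varied together, Tnfrsf4 differed between the lymphoma groups, and Pdcd1 was not called lower. They run 5′ to 3′ on the strand of the gene, from 250 bases before the start, without the bases in annotated exons of the same gene (28 for Cd5 and 22 for Btla). The windows are chr19:10739003-10739224 (minus strand) for Cd5, chr16:45224087-45224314 (plus strand) for Btla, chr4:156013445-156013694 (plus strand) for Tnfrsf4 and chr1:94052554-94052803 (minus strand) for Pdcd1. The Tnfrsf4 window ends 148 bases before the annotated start of that gene. Its part up to chr4:156013610, with the marked NFAT core, lies in the neighboring gene Sdf4 on the same strand. Capitals mark matches, on either strand, to the NFAT core GGAAA, the AP-1 site TGANTCA or the E-box CANNTG.
Cd5: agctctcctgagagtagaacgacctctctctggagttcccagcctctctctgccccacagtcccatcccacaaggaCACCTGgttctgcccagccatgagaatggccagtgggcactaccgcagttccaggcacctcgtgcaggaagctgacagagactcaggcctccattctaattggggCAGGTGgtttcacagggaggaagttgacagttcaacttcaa
Btla: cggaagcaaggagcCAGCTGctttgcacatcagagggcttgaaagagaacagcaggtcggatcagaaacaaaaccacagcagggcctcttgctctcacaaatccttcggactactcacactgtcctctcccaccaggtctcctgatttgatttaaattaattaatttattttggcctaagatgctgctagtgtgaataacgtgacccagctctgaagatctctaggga
Tnfrsf4: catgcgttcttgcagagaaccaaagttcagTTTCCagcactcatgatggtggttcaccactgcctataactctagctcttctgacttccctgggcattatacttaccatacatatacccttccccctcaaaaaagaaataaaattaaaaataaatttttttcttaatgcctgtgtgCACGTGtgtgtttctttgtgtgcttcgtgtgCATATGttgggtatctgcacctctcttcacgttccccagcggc
Pdcd1: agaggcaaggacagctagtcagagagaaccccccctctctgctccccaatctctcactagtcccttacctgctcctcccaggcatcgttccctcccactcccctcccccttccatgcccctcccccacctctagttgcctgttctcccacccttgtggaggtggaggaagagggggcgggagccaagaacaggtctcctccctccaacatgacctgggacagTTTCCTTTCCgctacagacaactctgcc
The Cd5 window holds 2 E-boxes and that of Btla 1 E-box. In Tnfrsf4 there are 1 NFAT core and 2 E-boxes, and in Pdcd1 there are 2 adjoining NFAT cores near the start. Among all 32851 windows of 250 bases, 55.6% hold the NFAT core, 66.2% an E-box and 6.75% the AP-1 site, so the letters marked here are common ones. The Tnfrsf9 start farther downstream, inside the annotated gene, has 1 AP-1 match at position -15, and is not printed because 81 of its bases are exonic. Windows for Cd28, Icos and Lag3 were not used here.

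Deposited values are normalized counts rounded to whole numbers, and column totals ran from 19788898 to 21591289. In 6 of the 13 libraries the worth of 1 read could be read from the steps between low values, and these held about 6360000 to 13700000 counted reads; depth was not resolved in the other libraries. The targeted genes were read first. Atm was at 1559 to 2274 normalized counts in WT thymus 208 to 732 in Atm-/- lymphomas and 439 to 1315 in Rag2c/c p53-/- lymphomas. Rag2 was at 4199 to 5409 in WT, 260 to 790 in Rag2c/c p53-/- lymphomas and 46 to 1025 in Atm-/- lymphomas, so both genes were below every thymus in both lymphoma groups. Trp53 was at 4387 to 6341 in WT, 2018 to 5461 in Rag2c/c p53-/- lymphomas and 6853 to 11318 in Atm-/- lymphomas; a whole-gene value does not show which part of a gene is missing. The Y-linked gene Ddx3y was at 0 in the 3 WT thymuses and in Atm-/- lymphomas 1 to 3, and above 0 in Atm-/- lymphomas 4 and 5 and all 5 Rag2c/c p53-/- lymphomas. Xist, expressed from the inactive X chromosome of females, was at 26404 to 30159 in WT thymus and 0 to 3 in Rag2c/c p53-/- lymphomas, so that sex as read from these genes also goes with the groups in that comparison and cannot be told apart from genotype. As a check of the labelled cell type, none of 8 T lineage genes (Cd3d, Cd3e, Cd3g, Cd247, Lck, Thy1, Lat and Zap70) was called in any comparison, and their summed value was 72838 to 132253 in Atm-/- and 69212 to 142452 in Rag2c/c p53-/- lymphomas against 80522 to 127046 in WT thymus. These are bulk samples, in which fewer cells of a type and less RNA per cell cannot be told apart.

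Receptor mRNA was lower in lymphomas than in normal thymus, but not for every receptor. Icos fell furthest, to 4.88% of its thymus mean in Atm-/- lymphomas and 5.93% in Rag2c/c p53-/- lymphomas, and Btla, Lag3, Tnfrsf4 and Tnfrsf9 fell to between 8.82% and 34.4% of it. Cd28 and Cd5, the most abundant receptors in normal thymus after Cd27 per kilobase of exon, fell to between 19.4% and 27.3%. Ctla4, Pdcd1 and Cd27 did not pass the test in either lymphoma group. A gene was called where limma, fitted on log2(value + 1) over 15872 genes, gave a Benjamini-Hochberg adjusted p below 0.05, a change of 1 log2 unit or more, and 10 or more normalized counts on average in either group. In Atm-/- lymphomas 7 of 10 receptors were called, all lower, where 29.5% of all genes tested were called and 17% were called lower. In Rag2c/c p53-/- lymphomas 7 of 10 were called, all lower, against 23.6% of all genes and 13.9% called lower. The 7 genes (Cd28, Icos, Btla, Lag3, Tnfrsf4, Tnfrsf9 and Cd5) were the same in both comparisons, which share the WT libraries. No library of either lymphoma group reached the lowest WT thymus for these 7 genes; such separation below the thymuses was seen for 27.9% of all genes in the Atm-/- comparison and 24.2% in the Rag2c/c p53-/- comparison, and separation in either direction for 51.3% and 43.9%. The median log2 fold change over the 10 receptors was -2.63 and -2.07, respectively, beside -0.019 and -0.018 over all genes tested. P-values here measure the spread between these samples only.

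**Figure D1:**
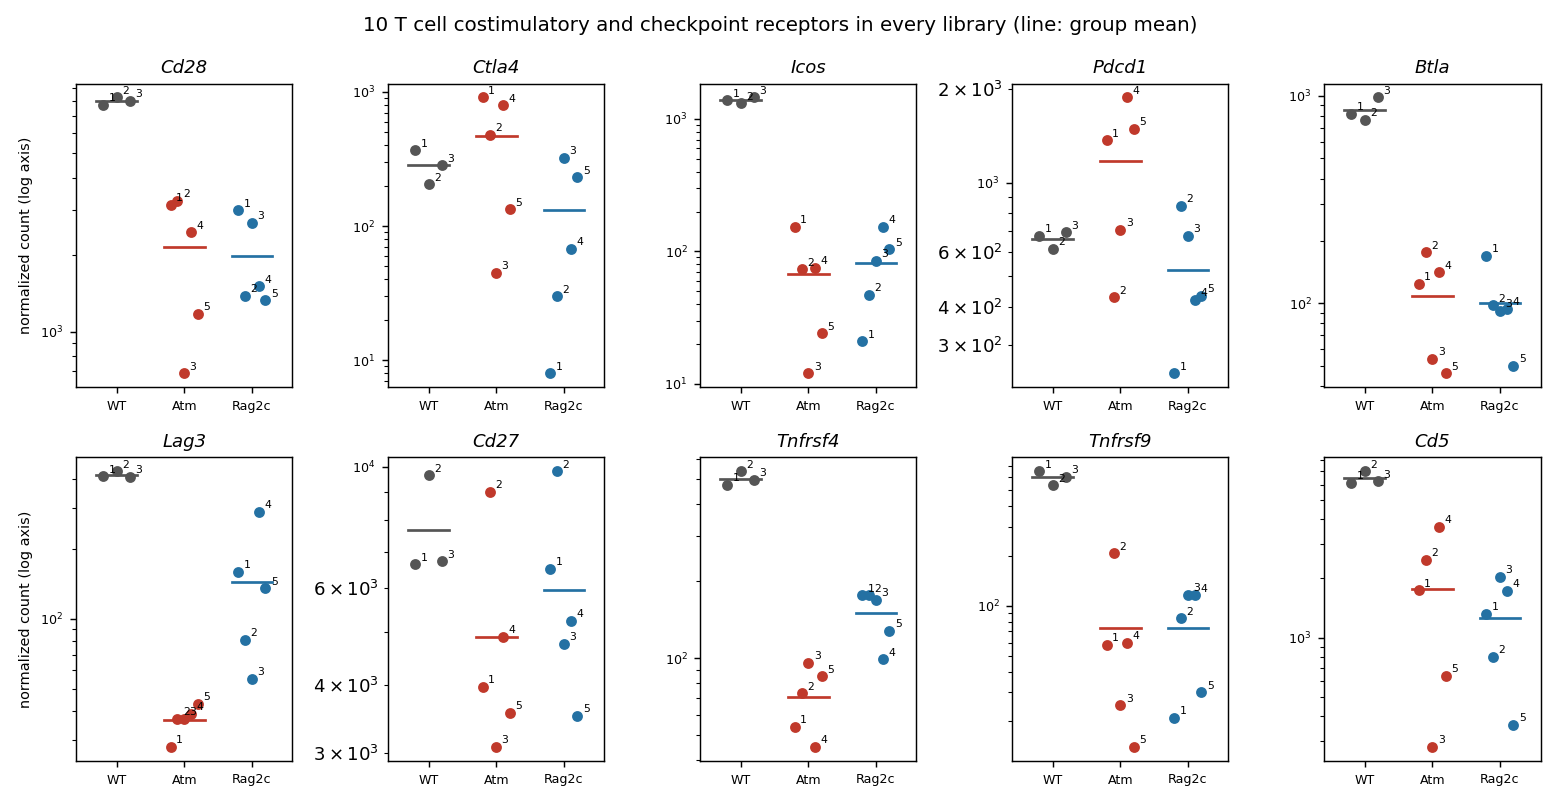
Normalized counts (log axis) of the 10 receptors in 3 WT thymuses (grey), 5 Atm-/- lymphomas (red) and 5 Rag2c/c p53-/- lymphomas (blue); points are libraries numbered by replicate and lines are group means. For Cd28, Icos, Btla, Lag3, Tnfrsf4, Tnfrsf9 and Cd5 every lymphoma lies below every thymus, whereas the groups overlap for Ctla4, Pdcd1 and Cd27.

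The CD28 family contained the receptor with the deepest loss and also Ctla4, which did not pass the test. Cd28 was at 7712, 8238 and 8010 normalized counts in the WT thymuses. It was at 3137, 3256, 687, 2446 and 1173 in Atm-/- lymphomas 1 to 5, and at 2981, 1378, 2670, 1506 and 1327 in Rag2c/c p53-/- lymphomas 1 to 5 (replicate numbers are names, in this order throughout). Every lymphoma was well below the thymuses, and Atm-/- lymphoma 3 was the lowest of all. The log2 fold change against WT was -2.13 (SE 0.46, limma adjusted p = 0.00232) in Atm-/- lymphomas and -2.11 (SE 0.46, limma adjusted p = 0.00323) in Rag2c/c p53-/- lymphomas. Between the lymphoma groups the difference was -0.02 with a 95% interval from -0.88 to 0.83 (Atm-/- minus Rag2c/c p53-/-, log2).

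Icos, the inducible member, was at 1386, 1316 and 1455 in WT thymus. In Atm-/- lymphomas it was at 154, 73, 12, 75 and 24, and in Rag2c/c p53-/- lymphomas at 21, 47, 85, 154 and 104. No lymphoma exceeded 154, so the highest tumor in each group was still far below the lowest thymus. This amounted to a log2 fold change of -4.82 (SE 0.74, limma adjusted p = 0.000241), or 28.3-fold, in Atm-/- lymphomas and -4.34 (SE 0.74, limma adjusted p = 0.000702), or 20.3-fold, in Rag2c/c p53-/- lymphomas. The lymphoma groups overlapped, with a difference of -0.48 (95% interval -1.86 to 0.91, log2).

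Ctla4, which lies between Cd28 and Icos on the chromosome, was not called in any comparison, unlike its neighbors. It was at 366, 205 and 283 in WT thymus, at 909, 480, 45, 792 and 133 in Atm-/- lymphomas, and at 8, 30, 324, 68 and 231 in Rag2c/c p53-/- lymphomas. Atm-/- lymphomas 1, 2 and 4 were above all thymuses and 3 and 5 below them, while 3 of the Rag2c/c p53-/- lymphomas were below all thymuses. The difference from WT did not pass the test in Atm-/- lymphomas (log2 fold change 0.07, SE 1.14, 95% interval -2.37 to 2.52, limma adjusted p = 0.964), and its sign depended on which library was left out. Nor did it pass in Rag2c/c p53-/- lymphomas (-2.03, SE 1.14, limma adjusted p = 0.175) or between the lymphoma groups (2.11, 95% interval -0.01 to 4.22, limma adjusted p = 0.193). The annotated gene also overlaps the ribosomal protein pseudogene Rpl18-ps1.

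Relative to Cd28 in the same library, the 2 family members moved apart. WT thymuses held 16 to 18.2 Icos normalized counts per 100 of Cd28, Atm-/- lymphomas 1.75 to 4.91 and Rag2c/c p53-/- lymphomas 0.704 to 10.2. For Ctla4 the ratio was 2.49 to 4.75 per 100 in WT thymus, 6.55 to 32.4 in Atm-/- lymphomas and 0.268 to 17.4 in Rag2c/c p53-/- lymphomas. Thus every Atm-/- lymphoma had less Icos and more Ctla4 per Cd28 than every thymus, while the Rag2c/c p53-/- lymphomas lay below the thymuses for Icos and on both sides of them for Ctla4. These ratios are a description and were not tested.

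**Figure D2:**
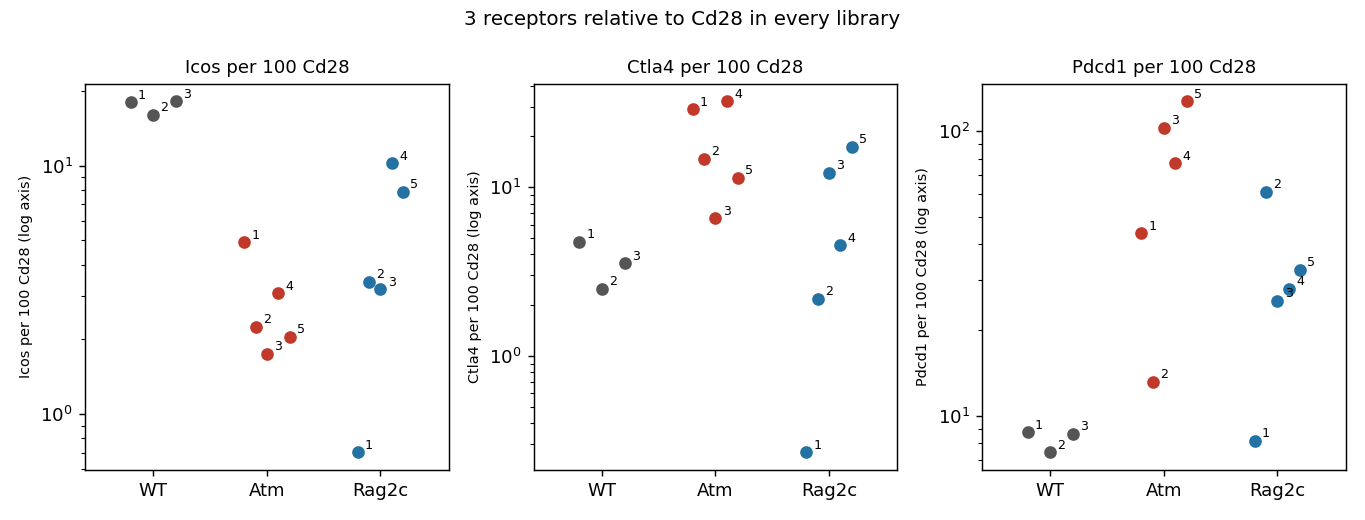
Icos, Ctla4 and Pdcd1 normalized counts per 100 of Cd28 (log axes) in each library, with points numbered by replicate. Atm-/- lymphomas lie below the thymuses for Icos (1.75 to 4.91 against 16 to 18.2) and above them for Ctla4 and Pdcd1; Rag2c/c p53-/- lymphoma 1 has the lowest Icos and Ctla4 ratio.

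Among the inhibitory receptors, Btla and Lag3 were called lower and Pdcd1 was not. Pdcd1 encodes PD-1, and was at 675, 614 and 694 in WT thymus. It was at 1372, 429, 707, 1882 and 1494 in Atm-/- lymphomas and at 244, 844, 676, 421 and 433 in Rag2c/c p53-/- lymphomas. In 4 of the 5 Atm-/- lymphomas it was above every thymus, and in Rag2c/c p53-/- lymphomas 1, 4 and 5 below every thymus. Neither difference from WT passed the test (log2 fold change 0.64, SE 0.46, limma adjusted p = 0.265 in Atm-/- lymphomas; -0.46, SE 0.46, limma adjusted p = 0.452 in Rag2c/c p53-/- lymphomas). Directly compared, Pdcd1 was 1.1 log2 units higher in Atm-/- than Rag2c/c p53-/- lymphomas (95% interval 0.25 to 1.96) but was not called over all genes (limma adjusted p = 0.0911). It was called without Atm-/- lymphoma 2 (1.42, limma adjusted p = 0.0197). Per 100 of Cd28, Pdcd1 was at 7.45 to 8.75 in WT thymus, 13.2 to 127 in Atm-/- lymphomas and 8.19 to 61.2 in Rag2c/c p53-/- lymphomas.

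Btla was at 819, 770 and 984 in WT thymus. It was at 124, 176, 54, 141 and 46 in Atm-/- lymphomas and at 170, 98, 92, 94 and 50 in Rag2c/c p53-/- lymphomas. The lymphoma groups covered the same range, and both were far below the thymuses. The log2 fold change was -3.15 (SE 0.47, limma adjusted p = 0.000178) and -3.17 (SE 0.47, limma adjusted p = 0.000258), respectively, and the lymphoma groups differed by 0.02 (95% interval -0.85 to 0.88). B cells also express Btla. All 6 B cell markers had log2 fold changes below 0 in both lymphoma groups. Of these, 4 were called lower in Atm-/- lymphomas and 5 in Rag2c/c p53-/- lymphomas, where 17% and 13.9% of all genes were called lower. The part of B cells in the Btla result was not tested. The summed B cell markers, dominated by Ighm, were 10193 to 14147 in WT thymus, 2324 to 27368 in Atm-/- and 1381 to 22361 in Rag2c/c p53-/- lymphomas.

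Lag3 was at 411, 432 and 408 in WT thymus. In Atm-/- lymphomas it was uniformly low, at 28, 37, 37, 39 and 43. In Rag2c/c p53-/- lymphomas it was at 159, 81, 55, 288 and 135. The 3 groups did not overlap, with WT thymus highest and Atm-/- lymphomas lowest. The log2 fold change against WT was -3.48 (SE 0.43, limma adjusted p = 5.03e-05) in Atm-/- lymphomas and -1.76 (SE 0.43, limma adjusted p = 0.00656) in Rag2c/c p53-/- lymphomas. The adjacent gene Cd4, for the related coreceptor, varied widely: 1201 to 17284 in Atm-/- lymphomas, 5470 to 25455 in Rag2c/c p53-/- lymphomas and 19831 to 30705 in WT thymus. Its differences were not called (-1.57, limma adjusted p = 0.0868, and -0.91, limma adjusted p = 0.335, respectively).

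Cd5, the dampener of TCR signals, was at 6131, 7014 and 6244 in WT thymus. It was at 1737, 2494, 278, 3668 and 639 in Atm-/- lymphomas and at 1322, 800, 2041, 1734 and 360 in Rag2c/c p53-/- lymphomas. All lymphomas were below the thymuses, but they differed from each other by up to 13.2-fold within the Atm-/- group. The log2 fold change was -2.39 (SE 0.73, limma adjusted p = 0.0173) in Atm-/- and -2.6 (SE 0.73, limma adjusted p = 0.0135) in Rag2c/c p53-/- lymphomas. In Atm-/- lymphomas the call was lost without any 1 of the 3 WT thymuses, at a similar fold change (-2.43 to -2.33, limma adjusted p = 0.0501 to 0.0554). Cd6, the paralog of Cd5 at 50.4 kb, changed with it (-2.18, limma adjusted p = 0.016, and -2.01, limma adjusted p = 0.0277).

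The TNF receptor family split between the abundant Cd27 and its induced relatives. Cd27 was at 6643, 9658 and 6722 in WT thymus, at 3968, 9004, 3079, 4892 and 3560 in Atm-/- lymphomas, and at 6511, 9825, 4751, 5232 and 3515 in Rag2c/c p53-/- lymphomas. Atm-/- lymphoma 2 was within the WT range and Rag2c/c p53-/- lymphoma 2 just above it, and the other lymphomas were below. The top of that range was WT thymus 2 alone. WT thymus 2, Atm-/- lymphoma 2 and Rag2c/c p53-/- lymphoma 2 had the fewest genes above 0 in their groups (17710, 18026 and 17325). The overlap rests on these libraries, and the part of depth in it was not tested. The difference passed the test in neither group (-0.74, SE 0.35, limma adjusted p = 0.1, and -0.43, SE 0.35, limma adjusted p = 0.352). The overlapping gene Vamp1 was lower in both (-1.92 and -1.64).

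Tnfrsf4, for OX40, was at 473, 536 and 496 in WT thymus. In Atm-/- lymphomas it was at 54, 73, 96, 45 and 85, and in Rag2c/c p53-/- lymphomas at 176, 176, 169, 99 and 128. As for Lag3, the 3 groups were separate, in the same order; the gap between the lymphoma groups was narrow, from 96 to 99. The log2 fold change was -2.86 (SE 0.31, limma adjusted p = 1.71e-05) in Atm-/- lymphomas and -1.77 (SE 0.31, limma adjusted p = 0.000748) in Rag2c/c p53-/- lymphomas. Tnfrsf18, the neighboring gene for GITR, also fell (-1.69, limma adjusted p = 0.00113, and -1.58, limma adjusted p = 0.0023), whereas Sdf4, at 0.2 kb, was not called.

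Tnfrsf9, for 4-1BB, was at 652, 536 and 605 in WT thymus. It was at 58, 208, 25, 60 and 14 in Atm-/- lymphomas and at 21, 84, 117, 116 and 30 in Rag2c/c p53-/- lymphomas. Atm-/- lymphoma 2 stood above its group, yet below every thymus. The log2 fold change was -3.6 (SE 0.76, limma adjusted p = 0.00207) and -3.31 (SE 0.76, limma adjusted p = 0.00453), respectively. The overlapping gene Camta1 was not called in any comparison.

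**Figure D3:**
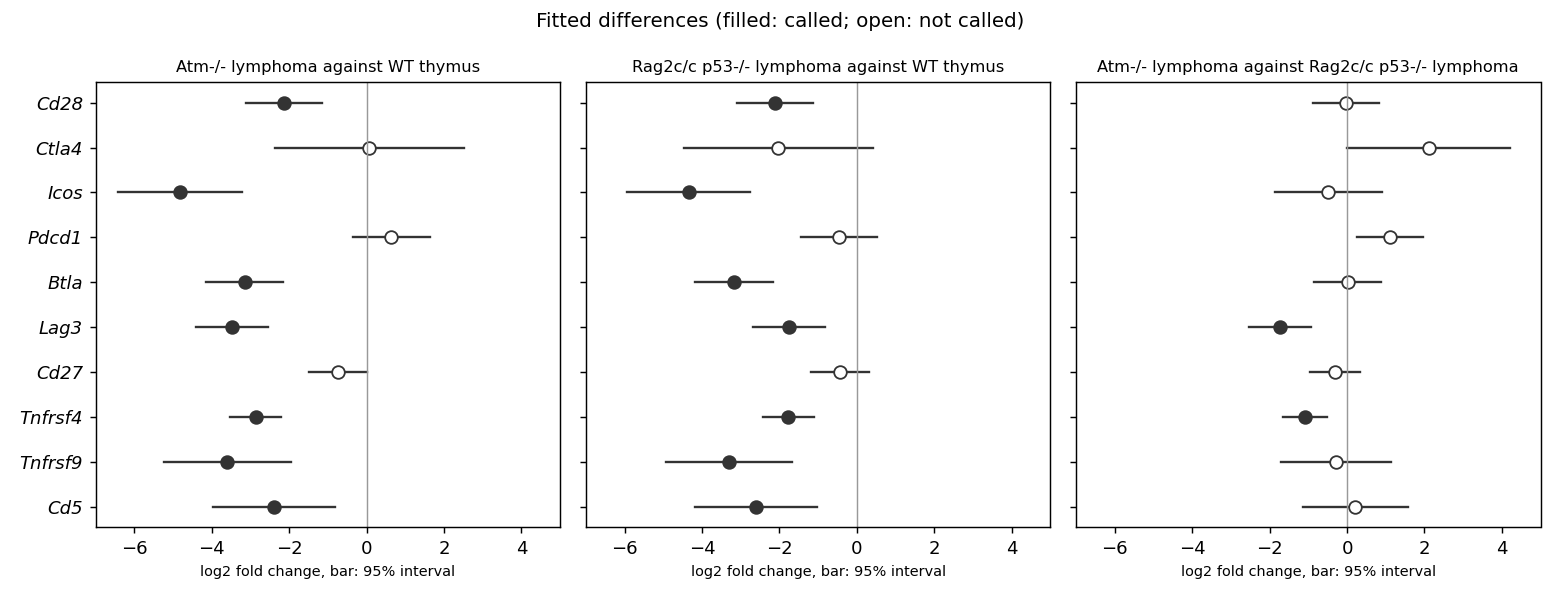
Log2 fold changes of the 10 receptors with 95% intervals (bars) from limma, in the 3 comparisons named above the panels; filled points were called. The same 7 receptors are called lower against WT thymus in both lymphoma groups, and only Lag3 (-1.72) and Tnfrsf4 (-1.09) are called between the lymphoma groups.

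The direct comparison of the lymphoma groups asked whether lymphomas of the 2 genotypes differ in these receptors. In this comparison 2 of 10 were called, both lower in Atm-/- lymphomas, where 7.84% of all genes tested were called and 4.33% were called lower. Lag3 was lower in Atm-/- lymphomas (mean 36.8 ± 5.5, SD, n = 5) than in Rag2c/c p53-/- lymphomas (144 ± 90.7, SD, n = 5) (log2 fold change -1.72, SE 0.37, limma adjusted p = 0.00995). Tnfrsf4 was lower as well (70.6 ± 21.1 against 150 ± 34.6, SD, n = 5 each), at a log2 fold change of -1.09 (SE 0.27, limma adjusted p = 0.0179). Both sets of values were separate between the groups, as for 8.33% of all genes (4.48% with Atm-/- lymphomas lower). The Tnfrsf4 call was lost without Atm-/- lymphoma 4 (-0.95), under T lineage centering (-1.17, limma adjusted p = 0.093), with only the lymphomas in the fit (-1.09, limma adjusted p = 0.0567) and with only lymphomas in which Ddx3y was above 0 (-1.23, limma adjusted p = 0.0698), and the Lag3 call in the last of these (-1.56, limma adjusted p = 0.126). For the other receptors the interval of the difference included 0, except that of Pdcd1 given above.

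Ranked by mean level per kilobase of exon, Cd27 was highest in all 3 groups (3297 ± 738 normalized counts per kb in WT thymus, 2105 ± 1026 in Atm-/- lymphomas and 2563 ± 1035 in Rag2c/c p53-/- lymphomas; SD). In WT thymus the order below it was Cd5 (1311 per kb), Cd28 (1305), Icos (404), Tnfrsf4 (368), Pdcd1 (342), Btla (253), Tnfrsf9 (220), Lag3 (198) and Ctla4 (122). Overlap with the next gene down was absent only for Cd27, Cd28, Pdcd1 and Lag3, which divided the order into Cd27, Cd5 with Cd28, a middle group, a low group and Ctla4. In Atm-/- lymphomas Pdcd1 (610 ± 308 per kb) came next, followed by Cd5 (358), Cd28 (350) and Ctla4 (202); Icos (19.7) and Lag3 (17.4) were last. In Rag2c/c p53-/- lymphomas Cd28 (322 ± 129 per kb) came next, then Pdcd1 (271) and Cd5 (254), with Icos (24) last. In both tumor groups every gene below Cd27 overlapped the next in the order. Lengths are those of all annotated exons (GENCODE vM21).

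**Figure D4:**
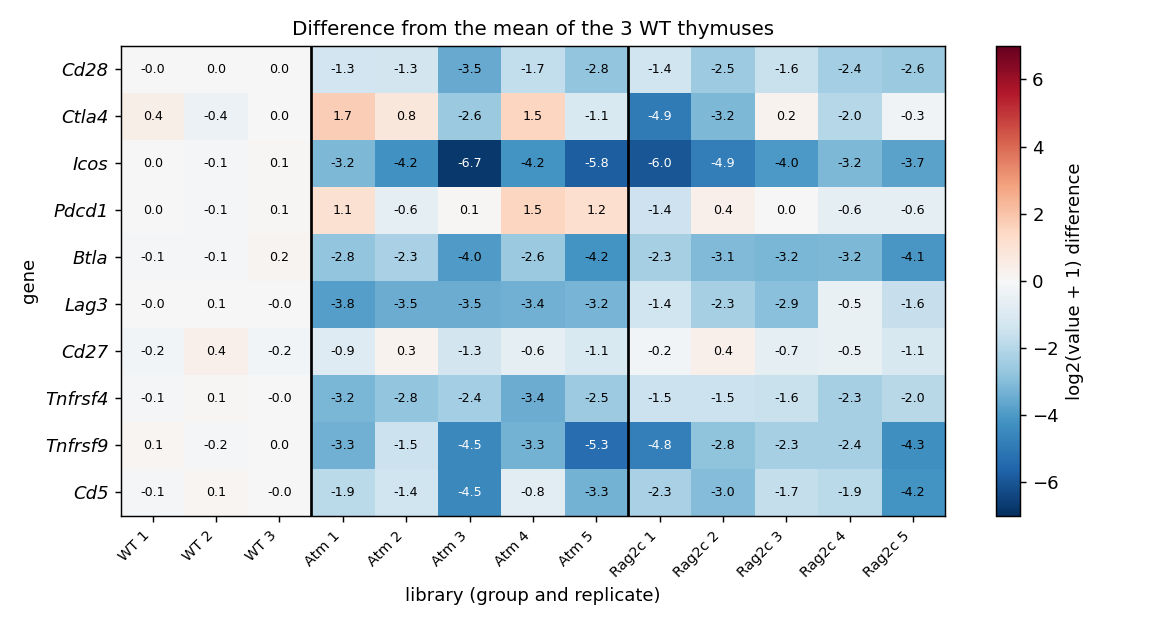
Difference of log2(value + 1) from the mean of the 3 WT thymuses for each receptor (rows) and library (columns, by group and replicate); blue is lower and red higher. Icos is low in all lymphomas, Lag3 and Tnfrsf4 are lower in Atm-/- than in Rag2c/c p53-/- lymphomas, and Atm-/- lymphomas 3 and 5 are the lowest of their group for Cd28, Ctla4, Icos, Btla, Cd27, Tnfrsf9 and Cd5.

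Individual lymphomas of the same genotype differed most in Ctla4. Its highest and lowest values were 20.2-fold apart among Atm-/- and 40.5-fold apart among Rag2c/c p53-/- lymphomas. The SD of its log2 values, 1.85 and 2.12, was above that of 97.9% and 98.6% of genes with a mean of at least 100 in the group. Lag3 was the opposite case in Atm-/- lymphomas, with a 1.54-fold range and an SD above that of 30% of those genes. Its own mean there, 36.8, was below the 100 required of them, so that share is not a like comparison. In Rag2c/c p53-/- lymphomas the range of Lag3 was 5.24-fold. Atm-/- lymphomas 3 and 5 were the 2 lowest of their group for Cd28, Ctla4, Icos, Btla, Cd27, Tnfrsf9 and Cd5, but the 2 highest for Tnfrsf4, and number 5 was among the 2 highest for Pdcd1. Among Rag2c/c p53-/- lymphomas, number 3 was highest for Ctla4, Tnfrsf9 and Cd5, and number 5 lowest for Cd28, Btla, Cd27 and Cd5.

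Across the 10 lymphomas, with log2 values centered within each group, the closest pairs of receptors were Ctla4 and Icos (Pearson r = 0.86), Cd28 and Cd5 (0.84), Cd28 and Btla (0.84), and Btla and Cd5 (0.81). Tnfrsf4 ran against Icos (-0.81) and Ctla4 (-0.6). Among all genes tested, those most like Cd5 were Il2ra, the IL-2 receptor alpha chain and an early thymocyte marker (r = 0.962, Spearman rho = 0.964), and A430093F15Rik, its neighbor at 2 kb (r = 0.956). Epas1 (r = 0.966) was nearest to Icos, B4galt1 (0.953) to Cd28, Fam73a (0.944) to Ctla4, Mre11a (0.949) to Pdcd1 and Rabgap1l (0.953) to Btla. The nearest to Lag3 was Pigh (0.935), to Tnfrsf4 Sdc4 (0.931), to Tnfrsf9 Got1 (0.97) and to Cd27 B230322F03Rik (0.97). These are the highest coefficients among all genes tested, over 10 points that share 1 normalization, and describe likeness only. Il2ra ran from 50 in Atm-/- lymphoma 3 and 93 in Atm-/- lymphoma 5 to 17248 in Atm-/- lymphoma 2, and from 19 to 1023 in Rag2c/c p53-/- lymphomas, against 3375 to 3662 in WT thymus.

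Most other costimulatory and inhibitory receptors of T cells were called lower too. Of 16, 12 were called lower in Atm-/- lymphomas and 10 in Rag2c/c p53-/- lymphomas, none higher, where 17% and 13.9% of all genes were called lower, and none was called between the lymphoma groups; the median log2 fold changes were -1.99 and -1.64. Cd40lg, the ligand through which helper T cells activate B cells, was at 422 to 586 in WT thymus and at 0 to 27 in lymphomas (log2 fold change -6.98, limma adjusted p = 0.000115, in Atm-/- and -7.36, limma adjusted p = 0.000128, in Rag2c/c p53-/- lymphomas). The adhesion receptors of the nectin-binding group were lower in both groups, with log2 fold changes of -5.98 and -4.82 for Cd226, -4.16 and -3.98 for Cd96 and -3.69 and -2.82 for Tigit (Atm-/- first, as in the pairs of values that follow). Rag2c/c p53-/- lymphoma 3 had the highest Cd40lg (27), Cd226 (128) and Tigit (54) of the 10 lymphomas. Cd2, Cd160, Slamf6 and Cd200 were not called against WT in either group.

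For the ligands and binding partners, 10 of 12 genes passed the filter, and 3 were called lower in Atm-/- lymphomas and 6 in Rag2c/c p53-/- lymphomas, with medians of -0.57 and -1.27. Over all genes 29.5% and 23.6% were called (17% and 13.9% called lower), and centering on T lineage genes reduced the counts of ligands to 1 and 3. Cd86, the CD28 and CTLA-4 ligand of antigen-presenting cells, had log2 fold changes of -1.75 and -2.2. Cd274, for PD-L1, was at -1.4 and -1.53, and Tnfrsf14, for the BTLA partner HVEM, at -1.45 and -2.48. Tnfsf4, for the OX40 ligand, was called only in Rag2c/c p53-/- lymphomas (-3.43) and was at a mean of 12.3 in WT thymus. Icosl and Cd80 were higher in Atm-/- than Rag2c/c p53-/- lymphomas. Icosl was at 1280, 128, 645, 419 and 869 in Atm-/- lymphomas and at 98, 142, 74, 218 and 149 in Rag2c/c p53-/- lymphomas, a difference of 2.03 (limma adjusted p = 0.0206). That of Cd80 was 1.22 (limma adjusted p = 0.04) at means of 26.8 and 10.4. The number of ligands called between the lymphoma groups fell to 1 or 0 in most alternative fits. Of 6 myeloid and dendritic cell markers, 3 (Cd68, Lyz2 and Itgam) were called higher in Atm-/- lymphomas, Itgam with a call lost in 8 of 23 alternative fits. Cd68 was called higher in Rag2c/c p53-/- lymphomas as well. Over all 15872 genes tested, 1992 and 1551 were called higher, respectively. Itgax, of the same list, went the other way without being called. It was at 98 to 282 in Atm-/- and 98 to 449 in Rag2c/c p53-/- lymphomas, against 318 to 444 in WT thymus. The summed list was 6154 to 10353 in Atm-/- lymphomas against 3593 to 4032 in WT thymus and 3654 to 7568 in Rag2c/c p53-/- lymphomas; their part in the ligand values was not tested.

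Downstream of the receptors, 5 of 12 genes of CD28 and ICOS signalling were called lower in Atm-/- lymphomas and 3 in Rag2c/c p53-/- lymphomas, with medians of -0.87 and -0.69. Over all genes 29.5% and 23.6% were called in either direction, and 17% and 13.9% were called lower. The count in Rag2c/c p53-/- lymphomas is close to the 23.6% called in either direction there. Prkcq, the kinase PKC-theta of the CD28 synapse, was at -1.33 and -1.71, and Malt1, a protease that acts after it, at -1.22 and -1.28. Pik3cd, a PI 3-kinase subunit, passed in Atm-/- lymphomas (-1.12) but not in Rag2c/c p53-/- lymphomas (-0.77), and was not called between the lymphoma groups. Under centering on T lineage genes no gene of this list was called in Atm-/- lymphomas and 1 in Rag2c/c p53-/- lymphomas, and without WT thymus 3 the counts were 3 and 1; without Atm-/- lymphoma 2, 3 were called in Atm-/- lymphomas. Of 6 phosphatases and brakes that act with inhibitory receptors, only Inpp5d, for the lipid phosphatase SHIP1, was called (-1.98 and -1.22, list medians -0.28 and -0.43), and in Rag2c/c p53-/- lymphomas its call was lost under the same centering (-0.9, limma adjusted p = 0.144). Ptpn6 and Ptpn11, for the SHP phosphatases that PD-1 recruits, were at -0.2 and -0.4 and at -0.36 and -0.28.

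In TNF receptor signalling 6 of 10 genes were called lower in Atm-/- lymphomas and 4 in Rag2c/c p53-/- lymphomas, with medians of -1.34 and -0.67, where 17% and 13.9% of all genes were called lower. Traf1, an adaptor induced by NF-kB, was at 1205 to 1317 in WT thymus, at 151, 46, 160, 53 and 106 in Atm-/- lymphomas, and at 244, 905, 405, 481 and 297 in Rag2c/c p53-/- lymphomas. Like Tnfrsf4 and Lag3, it was separate in the 3 groups. Its difference between the lymphoma groups was -2.19 (limma adjusted p = 0.00382). In Rag2c/c p53-/- lymphomas its call against WT was lost under T lineage centering and without any 1 of the WT thymuses (limma adjusted p up to 0.112). Birc3 (-1.61 and -1.74), Birc2 (-1.51 and -1.68) and Relb (-1.43 and -1.7), ubiquitin ligases of the TRAF complex and an NF-kB subunit, fell in both groups, and Nfkb2 (-1.48) in Atm-/- lymphomas.

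**Figure D5:**
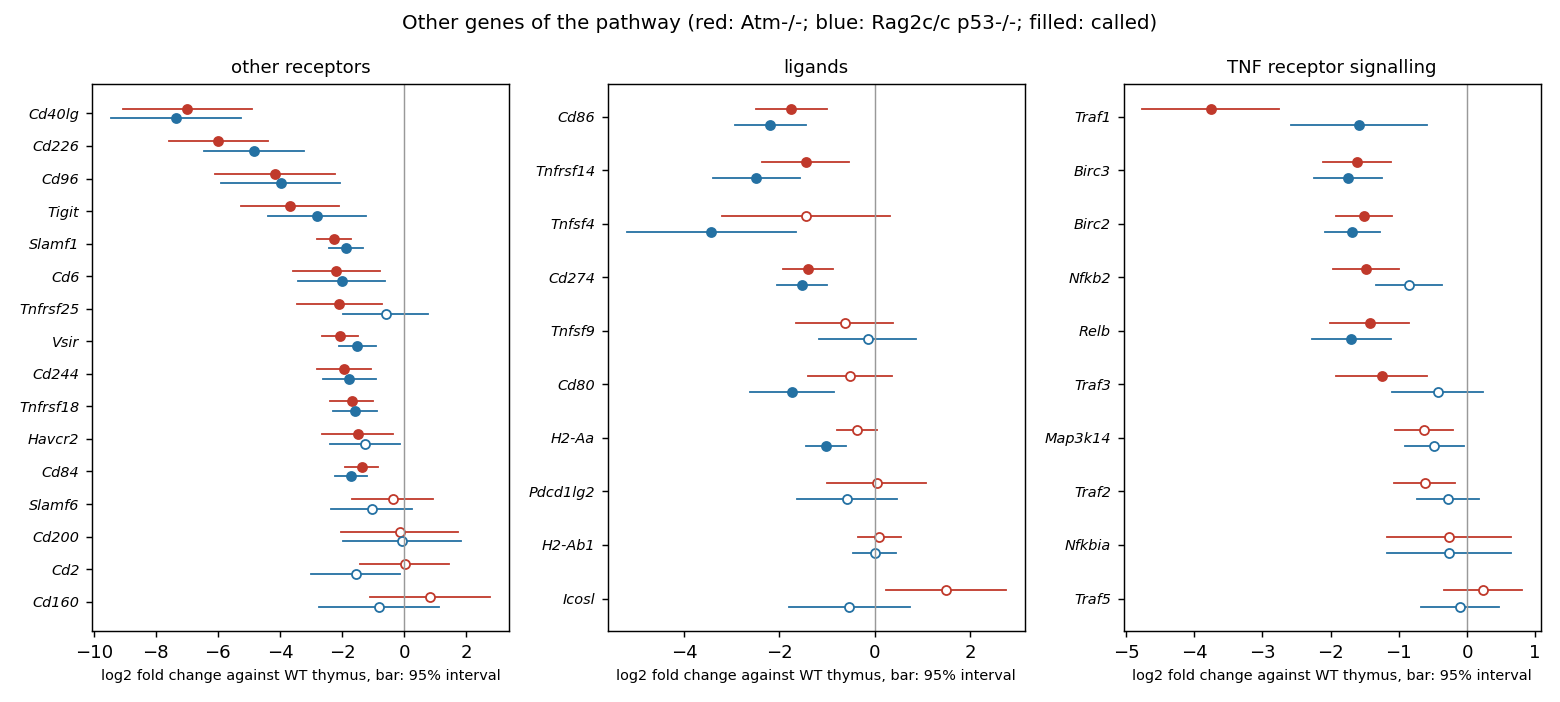
Log2 fold changes against WT thymus with 95% intervals for other receptors, ligands and TNF receptor signalling genes in Atm-/- (red) and Rag2c/c p53-/- (blue) lymphomas; filled points were called. Cd40lg (-6.98 and -7.36) and Cd226 (-5.98 and -4.82) show the greatest decreases among these 3 lists, and Icosl is the gene with the greatest positive value, not called in either.

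Some genes induced by TCR signals and some markers of T cell subsets that carry these receptors were called lower. Of 6 TCR response genes, this held for 4 in Atm-/- lymphomas and 3 in Rag2c/c p53-/- lymphomas (17% and 13.9% of all genes were called lower), with medians of -3.08 and -3.16. Egr2, an immediate early transcription factor, was at 770 to 965 in WT thymus and 30 to 75 in lymphomas (-4.13, limma adjusted p = 2.74e-06, and -4.28, limma adjusted p = 4.34e-06), and Cd69 was at -4.26 and -4.42. Nr4a1 was not called in either group, and its value in Rag2c/c p53-/- lymphoma 3 (5346) was above every WT thymus (3559 to 4441); without that library 5 of the 6 genes were called in its group. Foxp3, which defines regulatory T cells, was at 236 to 240 in WT thymus, 0 to 14 in Atm-/- and 1 to 15 in Rag2c/c p53-/- lymphomas, and 3 and 4 of 6 regulatory T cell markers were called lower, with medians of -1.75 and -2.17. The summed markers of that list were 5505 to 6832 in WT thymus, 1669 to 4662 in Atm-/- and 833 to 3705 in Rag2c/c p53-/- lymphomas. Those of mature single positive thymocytes, of which 2 and 3 of 5 were called lower, were 13784 to 14270, 5013 to 16401 (overlapping WT) and 1179 to 4723, and those of CD4+CD8+ double positive thymocytes 132652 to 197309, 30804 to 67470 and 60379 to 83642. Their part in the receptor values was not tested.

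Genes around the receptors moved in both directions. Of 95 other protein-coding genes within 200 kb, 81 were tested; 24 were called in Atm-/- lymphomas, 12 lower and 12 higher, with a median log2 fold change of -0.03. In Rag2c/c p53-/- lymphomas 19 were called, 9 lower and 10 higher, with a median of 0.08. Both counts were close to the shares called over all genes (29.5% and 23.6%). Atg3, the nearest to Btla, was at 0.01 and -0.08, and Ptms, the nearest to Lag3, at -0.85 and 0.08, and neither was called.

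Scaling bore on the background of these calls. Centering each library on the 8 T lineage genes moved the median of all genes tested to 0.221 against WT in Atm-/- lymphomas and 0.297 in Rag2c/c p53-/- lymphomas, and turned the split of calls from 1992 higher and 2695 lower to 2526 and 1643, and from 1551 and 2199 to 2274 and 1099. The 7 receptors kept their direction under it, and Lag3 in Rag2c/c p53-/- lymphomas lost its call (-1.44, limma adjusted p = 0.0559).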

How the data were processed

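RNA had been extracted from single-cell suspensions of 13 mouse samples and made into TruSeq Stranded mRNA libraries. According to the study's methods and the labels, the authors aligned reads with STAR 2.4.0g1 to GRCm38, removed duplicates with Picard, counted uniquely mapped reads per Ensembl gene with HTSeq-count and normalized with DESeq2 1.6.3; the setting of strand in counting is not given in the sources used here. The deposited values are a score for each gene and library, namely normalized counts that the authors rounded to whole numbers, and not raw counts. The authors' group means equal the rounded means of these columns for all 43629 genes. Their overall mean, however, is within 1% of the mean of the 13 columns for only 4.54% of genes at 100 or more. Their normalization may therefore have rested on a fit whose libraries are not all used here, which could not be settled. The table also holds the authors' own fold changes (as a ratio and on the log2 scale), p-values and dispersion estimates against WT, none of which was used.

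Because the values are not raw counts, no count test was run. Values were analyzed as log2(value + 1) with limma 3.58.1 (trend and robust) in R 4.3.3, in 1 fit of 3 groups and 13 libraries without covariates, for 15872 genes at 10 or more in at least 3 libraries. Fold changes are on this scale and understate changes of low genes. Benjamini-Hochberg adjustment covered all genes tested. The code was tested on simulated data. The receptors and the gene lists were chosen with earlier results of these data known. Beside the receptors, named genes are those called in a comparison (at most 4 per list by absolute log2 fold change), the nearest protein-coding neighbors within 200 kb, the 2 genes most alike each receptor, and Atm, Rag2 and Trp53; other names were chosen after values were seen, and some genes that the rule names are not reported here. Coordinates come from the deposited table and exons from GENCODE vM21. RefSeq promoters were matched by symbol for 7 of 10 receptors. Alternatives were other scalings, filters, pseudocounts, thresholds and fits and leaving out each library; 2 that split lymphomas by Ddx3y were chosen after seeing the data. Arithmetic used Python 3.11.15, numpy 2.4.6 and pandas 2.3.3.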

Additional observations from a re-analysis of the deposited data

Results flagged for a closer look

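In groups of 5 lymphomas, a library was singled out where its gap to the nearest other library, divided by the range of the group, exceeded Dixon's critical value of 0.71, on the scale of normalized counts. Of 78 sets (receptors and named pathway genes in each lymphoma group) 9 were singled out. The rate of about 1 in 20 behind this critical value is for independent, normally distributed values. These are counts from shared libraries, some near 0, so that rate does not apply and the number is a description only. Among the receptors this held for Tnfrsf9 in Atm-/- lymphoma 2, at 208 against 14 to 60 in the other 4 (ratio 0.763). The same library stood out for Cd80, at 50 against 20 to 23 (ratio 0.9). Rag2c/c p53-/- lymphoma 3 stood out for 6 genes of the pathway. These were Cd40lg at 27 against 0 to 3 (ratio 0.889), Cd226 at 128 against 10 to 22 (0.898), Tigit at 54 against 2 to 16 (0.731), Egr3 at 104 against 3 to 30 (0.733), Cd69 at 238 against 40 to 88 (0.758) and Pik3cd at 6147 against 2896 to 3772 (0.731). Among the receptors, that lymphoma was also the highest of its group for Ctla4, Tnfrsf9 and Cd5, though not by this measure. Tnfsf4 in Rag2c/c p53-/- lymphoma 4 (ratio 1) rests on a value of 1 against 0 in the other 4.

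The effect against WT thymus differed between the lymphoma groups, by limma over all genes, for 5 of these genes. The difference, Atm-/- minus Rag2c/c p53-/- on the log2 scale, was -1.72 for Lag3, -1.09 for Tnfrsf4, -2.19 for Traf1, 2.03 for Icosl and 1.22 for Cd80. Strain goes with the lymphoma groups and cannot be told apart from genotype.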

How the results depend on the processing

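Receptors called lower numbered 7 of 10 under every alternative tried against WT thymus, except 6 in Rag2c/c p53-/- lymphomas under centering on T lineage genes and 6 to 7 in Atm-/- lymphomas when leaving out a library (Cd5). Between lymphoma groups, 2 were called in most fits, 1 to 3 when leaving out a library, and 1 with T lineage centering, with only these groups in the fit and with lymphomas with Ddx3y above 0 only; the cause was not tested. Genes called there fell from 1244 to 764 and 677 under the first and last of these (split 557 higher and 687 lower against 282 and 482 when centered), and rose from 3750 to 5884 in Rag2c/c p53-/- lymphomas without a fold threshold.

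Uncalled differences changed sign. For Ctla4 in Atm-/- lymphomas against WT the value was -0.34 to 0.74 when leaving out a library (below 0 without WT thymus 2 or Atm-/- lymphoma 1, 2 or 4), and -0.03 with Atm-/- lymphomas at Ddx3y 0 only. Between lymphoma groups, leaving out a library gave -0.23 to 0.33 for Cd28, -0.89 to 0.00 for Icos, -0.21 to 0.28 for Btla, -0.81 to 0.14 for Tnfrsf9 and -0.18 to 0.75 for Cd5; Btla was at -0.06 with T lineage centering and -0.21 with Ddx3y above 0. Pdcd1 was called there with Ddx3y above 0 (1.8). No paired analysis was possible because each lymphoma came from a different mouse. Depth was resolved in 6 libraries only, so counting error behind the lowest values, such as Ctla4 at 8, is not known.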

Other observations

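Akt1, the kinase downstream of PI 3-kinase in CD28 and ICOS signalling, was singled out after its values were seen. It was at 47706 and 29777 normalized counts in Rag2c/c p53-/- lymphomas 3 and 4, and at 4076 to 6086 in the other 8 lymphomas and 4398 to 5766 in WT thymus. The group difference was not called (log2 fold change 1.25 against WT, limma adjusted p = 0.136). Among the 10 receptors, the same lymphomas were the 2 highest of their group for Tnfrsf9 and Cd5 only. They were also the 2 highest for Il2ra, Cd6, Cd2, Slamf6 and Cd160. Number 3 was the lowest of the group for Lag3 and number 4 for Tnfrsf4. A relation of Akt1 to the receptors was not tested.

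Markers of cells that surround thymocytes also differed. Of 6 stromal markers, 4 were called higher in Atm-/- lymphomas, and in Rag2c/c p53-/- lymphomas 4 were called higher and Cdh5 lower. Over all 15872 genes tested, 1992 and 1551 were called higher, respectively. Without WT thymus 1, Col1a1 and Cdh5 lost their calls in Rag2c/c p53-/- lymphomas and 3 markers were called. Col1a2, a fibroblast collagen, was at a mean of 4475 and 358 against 30.7 in WT thymus. The thymic epithelial proteasome gene Psmb11 was listed at 0 in all Atm-/- lymphomas, and at a mean of 0.2 in Rag2c/c p53-/- lymphomas and 83 in WT thymus. Not all 6 thymic epithelial markers followed it in Rag2c/c p53-/- lymphomas, where 4 had log2 fold changes below 0. Epcam was there at 22 to 875 against 221 to 283 in WT thymus, and Ccl25 at a mean of 295 against 277. The summed list was 189 to 609 in Atm-/- lymphomas, 287 to 1320 in Rag2c/c p53-/- lymphomas and 725 to 1058 in WT thymus. Among innate-like markers, Nkg7 was at a mean of 5 and 17.6 against 678, while Gzma was higher in both groups (5674 and 4527 against 1188). Il7r was higher in Atm-/- than in Rag2c/c p53-/- lymphomas (log2 fold change 2.52, limma adjusted p = 0.0114). The Il7r call was lost under T lineage centering and with only lymphomas in which Ddx3y was above 0 (limma adjusted p up to 0.0634).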
